A study of Mus musculus with 24 samples.

Results

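The genes described here encode proteins of the extracellular matrix: Fn1, Tgfbi, Tnc, Spp1, Ecm1, Col1a1, Col4a1, Col4a2, Postn and Lox. They were chosen by gene name, and they are 10 of the 54532 genes in the deposited table. Each was measured by polyadenylated RNA sequencing of cultured mouse bone marrow macrophages, phagocytes grown from tibial marrow with CSF-1 (macrophage colony-stimulating factor) after a first step with interleukin-3. There were 24 libraries in 8 groups of 3, and each of 4 genotypes was either given 10 ng/ml TGF-β1 for 4 hours after serum starvation or left untreated. MyS2KO cells carried floxed Smad2 and LyzM-Cre, and their controls, Smad2fl, carried floxed Smad2 alone. MyS3KO cells carried floxed Smad3 and LyzM-Cre, and their controls, Smad3fl, carried floxed Smad3 alone. All mice were C57BL/6 and 2 to 3 months old, and all groups shared the same growth factors and the starvation. LyzM-Cre expresses the recombinase from the lysozyme gene Lyz2, which is active in cells of the myeloid lineage. The labels do not say whether the 3 libraries of a group came from separate mice, and they speak of 8 libraries where 24 samples are listed, so p-values measure the spread between these libraries, which may be technical.

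The extracellular matrix is the protein network that surrounds cells. Fibrillar and basement membrane collagens give it structure, fibronectin and other glycoproteins connect it to integrin receptors, and matricellular proteins are secreted into it to signal to cells more than to bear load. TGF-β binds a receptor kinase that phosphorylates SMAD2 and SMAD3, which join SMAD4 and bind DNA at short motifs near target genes, and matrix genes are among its best known targets in fibroblasts. Macrophages make a narrower set of matrix proteins than fibroblasts do.

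Promoter windows of 250 bases before to 50 bases after an annotated transcript start were taken from RefSeq on GRCm38.p6, the build named in the submitters' processing notes, and 7 of the 10 genes matched with 10 windows. The windows below are those of the genes on which the results turn, and they are printed 5′ to 3′ on the strand of the gene. Capitals mark matches to CAGACA (or its reverse complement TGTCTG), a SMAD-binding sequence, to GGCGCC, a sequence bound by SMAD proteins, and to TGANTCA, the AP-1 sequence, each searched on both strands. Tgfbi and Tnc are shown because their RNA rose with TGF-β1, Ecm1 because it differed between knockout and floxed cells of the Smad3 line, and Col4a1 and Col4a2 because they are transcribed away from each other from 1 shared region.
Tgfbi, chr13:56609336-56609635, plus strand: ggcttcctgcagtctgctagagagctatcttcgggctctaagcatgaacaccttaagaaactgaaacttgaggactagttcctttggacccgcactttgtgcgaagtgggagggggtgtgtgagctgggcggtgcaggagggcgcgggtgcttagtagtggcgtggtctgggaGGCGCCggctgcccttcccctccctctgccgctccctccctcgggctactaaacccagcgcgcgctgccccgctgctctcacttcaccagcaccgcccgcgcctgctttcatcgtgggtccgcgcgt
Tnc, chr4:64046966-64047265, minus strand: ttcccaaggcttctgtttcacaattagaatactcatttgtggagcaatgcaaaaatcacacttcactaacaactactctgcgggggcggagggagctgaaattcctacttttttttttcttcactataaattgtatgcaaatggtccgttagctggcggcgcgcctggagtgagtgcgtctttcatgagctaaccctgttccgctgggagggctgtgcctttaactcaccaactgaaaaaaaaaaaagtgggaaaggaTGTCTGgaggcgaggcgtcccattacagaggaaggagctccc
Ecm1, chr3:95739520-95739819, minus strand: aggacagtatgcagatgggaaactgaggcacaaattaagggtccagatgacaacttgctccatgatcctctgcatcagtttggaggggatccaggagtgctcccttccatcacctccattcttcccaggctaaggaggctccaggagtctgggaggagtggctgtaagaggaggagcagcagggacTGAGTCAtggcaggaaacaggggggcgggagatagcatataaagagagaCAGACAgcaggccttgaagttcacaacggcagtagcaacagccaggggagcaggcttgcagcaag
Col4a1, chr8:11312777-11313076, minus strand: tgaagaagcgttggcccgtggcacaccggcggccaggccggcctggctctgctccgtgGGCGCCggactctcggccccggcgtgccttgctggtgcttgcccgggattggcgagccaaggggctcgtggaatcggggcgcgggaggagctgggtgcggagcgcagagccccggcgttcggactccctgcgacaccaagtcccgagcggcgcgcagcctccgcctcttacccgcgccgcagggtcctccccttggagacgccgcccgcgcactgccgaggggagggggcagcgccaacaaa
Col4a2, chr8:11312555-11312854, plus strand: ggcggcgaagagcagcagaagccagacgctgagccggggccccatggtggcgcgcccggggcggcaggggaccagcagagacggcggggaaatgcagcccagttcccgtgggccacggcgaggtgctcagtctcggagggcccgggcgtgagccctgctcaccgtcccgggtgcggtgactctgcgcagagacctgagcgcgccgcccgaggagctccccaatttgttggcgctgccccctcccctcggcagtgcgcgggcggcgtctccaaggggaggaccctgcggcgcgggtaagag
Counting the transcript start as position 1, the Tgfbi window held 1 GGCGCC at position -77, and the printed Tnc window held 1 CAGACA match at position 9. A second Tnc window, chr4:64046887-64047186 around a start further downstream, overlaps the printed one and held CAGACA at positions -71, which is the same site, and 40. The Ecm1 window held CAGACA at position -15 and TGANTCA at position -64. Col4a1 held GGCGCC at position -192, Col4a2 held none of the 3 motifs, and the 2 windows share 78 bases. The first Spp1 window, which is not printed, held CAGACA at position -34. Of the 32817 windows in the RefSeq table, 21.0% held CAGACA, 11.9% held GGCGCC and 7.81% held TGANTCA. The 3 searches were for different letters, and no match overlapped another in the printed windows.

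Libraries held 16868501 to 24918582 counted reads. All 8 macrophage markers looked at were present, summing to 15100 to 31000 CPM (read counts scaled to library totals after TMM adjustment), and the 12 fibroblast and stromal markers summed to 3.03 to 6.5 CPM, with only Acta2 and Tagln reaching a mean of 1 CPM. Endothelial markers summed to 32.5 to 168 CPM, dendritic cell markers to 16.6 to 47.3 CPM and megakaryocyte markers to 68.9 to 265 CPM. Few genes carried these sums. A mean of 1 CPM was reached by 3 of 6 endothelial markers (Kdr, Pecam1 and Cdh5) and 2 of 7 dendritic cell markers (Xcr1 and Batf3). Of 5 megakaryocyte markers only 1 reached it, Pf4, at 68.6 to 264 CPM. Lymphocyte, mast cell and erythroid markers summed to at most 4.08, 0.562 and 1.07 CPM. The part of such cells in the matrix genes was not tested. Smad2 gene-level RNA was at 40.3 ± 6.31 and 40.4 ± 2.9 CPM in treated and untreated libraries labelled MyS2KO, against 37.7 ± 1.65 and 42.2 ± 2.98 CPM in Smad2fl (mean ± SD, n = 3), a change of 0.09 ± 0.12 with TGF-β1 and -0.06 ± 0.12 without it on the log2 scale (adjusted p = 0.891 and 0.924). These counts did not show the loss that the label states, and gene-level counts cannot show whether single exons were lost. The submitters' design text states that the loss was documented by other assays, which were not used here. Those libraries are therefore called the libraries labelled MyS2KO, and every direction given for them rests on the label. Lyz2 was at 4220 ± 152 CPM treated and 6070 ± 760 CPM untreated in them, against 8200 ± 736 and 11200 ± 399 CPM in Smad2fl. These Lyz2 differences were not called (log2 change -0.96 and -0.89, edgeR adjusted p = 0.367 and 0.502). In MyS3KO against Smad3fl they were -0.06 treated and -0.48 untreated, not called either (adjusted p = 0.922 and 0.394). Smad3 RNA was lower in MyS3KO, with 268 ± 19.8 CPM treated and 184 ± 24 CPM untreated, against 415 ± 23.1 and 424 ± 48.2 CPM in Smad3fl (log2 change -0.63 and -1.21, adjusted p = 0.00208 and 6.91e-06). In the Smad2 line Smad3 was at 49.4 and 31.3 CPM in treated and untreated libraries labelled MyS2KO and at 57.2 and 41.5 CPM in Smad2fl. MyS3KO thus held more Smad3 RNA than either genotype of the Smad2 line, and Smad3fl more again (3.35 ± 0.15 on the log2 scale over Smad2fl untreated, edgeR adjusted p = 1.12e-12), so each comparison with Smad3fl is one with libraries of high Smad3 RNA, the cause of which was not tested. Smad3fl libraries stood apart from the other groups in the share of reads from ribosomal protein genes, which was 0.879% to 1.41% there and 1.5% to 2.23% elsewhere. Both Smad3fl libraries numbered 3 lay at least 4-fold from the others of their genotype on 4 of 8454 genes with a mean of at least 5 CPM, and both MyS3KO libraries numbered 1 did so on 1 gene, against 0 to 2 genes for the other numbers. By this count the MyS3KO libraries numbered 1 did not stand out, and leaving them out was a choice made after seeing the data. Earlier results of these data had set these libraries apart, and results of the Smad3 line are therefore also given without them where the call changed. In these bulk samples, fewer cells of a type and less RNA per cell cannot be told apart.

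The 10 genes spanned several orders of magnitude. Per length of transcript, the mean over the 24 libraries was 341 FPKM (fragments scaled by gene length and library size, as deposited) for Spp1, 195 for Tgfbi and 56.6 for Ecm1. Col4a2 averaged 1.75 FPKM, Lox 1.64, Col4a1 0.522, Fn1 0.378, Col1a1 0.0949, Tnc 0.0513 and Postn 0.0165. Spp1, Tgfbi and Ecm1 had 97.8%, 96.0% and 86.6% of the tested genes below them, and Col4a2, the next, had 33.0%. Fn1 was at no more than 1.10 FPKM in any library. Of the 10 genes, 9 passed the low-count filter and were tested, and Postn, with 18 reads in all libraries together, did not.

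Tgfbi (chr13:56609523-56639562, plus strand) encodes a secreted protein, TGFBIp, that binds collagens and integrins and takes its name from its induction by TGF-β. It was at 497, 379 and 478 CPM in treated libraries labelled MyS2KO, against 53.6, 30.6 and 54.1 CPM in the untreated ones. In Smad2fl it was at 727, 816 and 647 CPM with TGF-β1, against 44.0, 62.9 and 49.2 CPM without. MyS3KO had 607, 621 and 743 CPM with TGF-β1, against 18.4, 31.2 and 31.9 CPM without. Smad3fl had 424, 379 and 448 CPM with TGF-β1, against 23.8, 15.4 and 19.9 CPM without. The treated and untreated libraries did not overlap in any genotype, and every treated library lay above every untreated library of the series. Tgfbi rose 9.80-fold in the libraries labelled MyS2KO (log2 change 3.29 ± 0.24, SE), 14-fold in Smad2fl (3.81 ± 0.24), 24.1-fold in MyS3KO (4.59 ± 0.25) and 21.1-fold in Smad3fl (4.40 ± 0.25). The edgeR quasi-likelihood test gave adjusted p = 2.95e-09, 1.22e-10, 2.65e-11 and 5.52e-11 in that order. By log2 change Tgfbi ranked 51st, 63rd, 16th and 15th of the 14261 genes tested. The order of the treated means was Smad2fl (730 CPM), MyS3KO (657), labelled MyS2KO (451) and Smad3fl (417), and within the first pair and within the second pair the libraries overlapped.

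**Figure D1:**
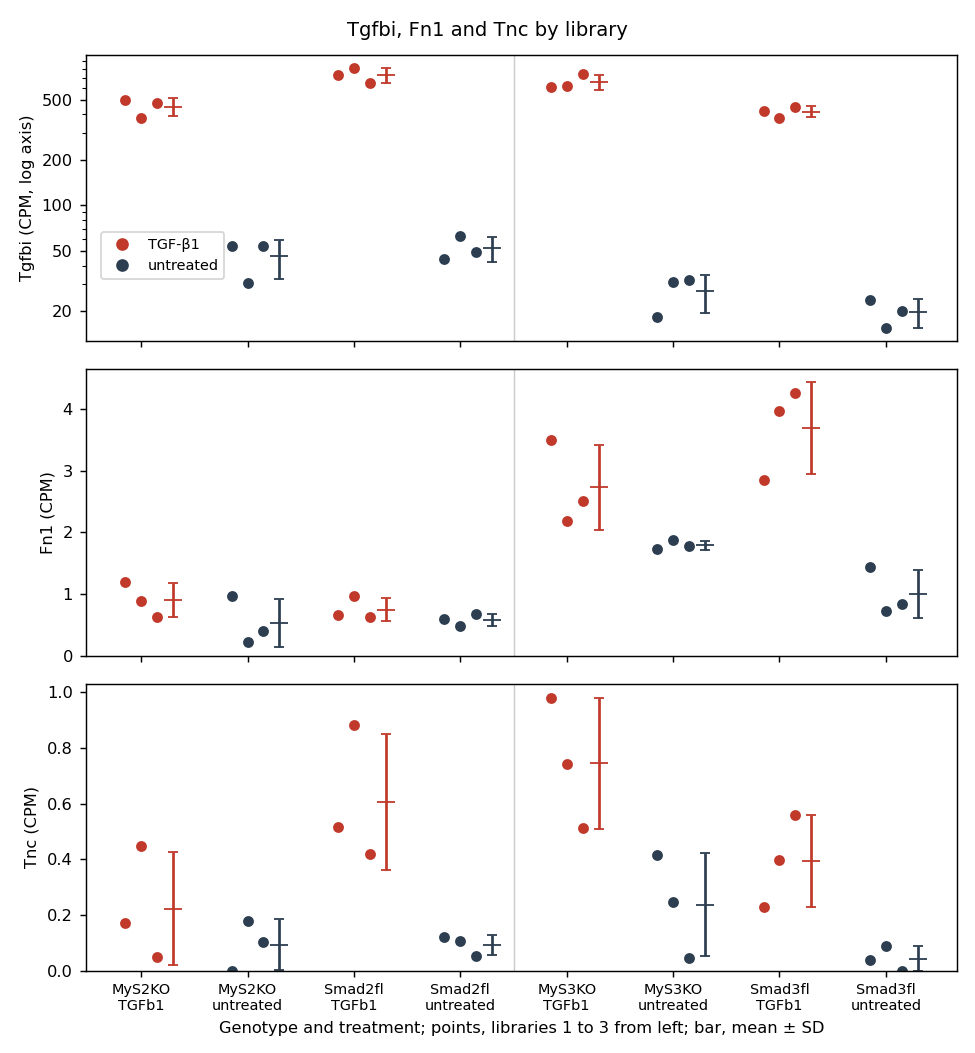
CPM of Tgfbi (log axis), Fn1 and Tnc in each library (points), with mean ± SD beside them, for each genotype with and without TGF-β1. Tgfbi is higher in every treated library of every genotype, Fn1 separates most in Smad3fl (3.69 CPM treated, 1 CPM untreated), and Tnc stays below 1 CPM throughout.

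With TGF-β1, 3.41% of all tested genes were called (adjusted p under 0.05) in the libraries labelled MyS2KO, 11.1% in Smad2fl, 10% in MyS3KO and 12% in Smad3fl. Of the 9 genes tested here, 1, 2, 1 and 3 were called in those 4 genotypes, all higher. These are counts of few genes, and nothing particular to them is read from the counts beside those background shares. Treated and untreated libraries of equal number all had r over 0.1 in Smad3fl and among those labelled MyS2KO. The highest r of unequal numbers was -0.09 in Smad3fl. Among those labelled MyS2KO it was 0.2, above the 0.15 of number 1, so pairing is not clear there. With the number as a block 3306 and 1032 genes were called in these genotypes, against 1714 and 486 without it. The same number of the genes described here was called.

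Fn1 (chr1:71585520-71653200, minus strand) encodes fibronectin, the glycoprotein that connects collagen to integrins. In Smad3fl it was at 2.85, 3.96 and 4.25 CPM with TGF-β1, against 1.44, 0.721 and 0.846 CPM without, so all treated libraries lay above all untreated ones. It rose 3.65-fold there (log2 change 1.87 ± 0.38, edgeR adjusted p = 0.00132). MyS3KO had 3.49, 2.18 and 2.51 CPM with TGF-β1, against 1.73, 1.87 and 1.78 CPM without, which did not overlap either but did not pass the test (0.60 ± 0.37, adjusted p = 0.372). In the Smad2 line Fn1 was at 1.19, 0.892 and 0.636 CPM treated, against 0.970, 0.225 and 0.402 CPM untreated, in the libraries labelled MyS2KO, and at 0.655, 0.969 and 0.626 CPM treated, against 0.597, 0.477 and 0.675 CPM untreated, in Smad2fl. These groups overlapped (0.80 ± 0.43, adjusted p = 0.502, and 0.37 ± 0.42, adjusted p = 0.636). The response in MyS3KO minus that in Smad3fl was -1.27 ± 0.52 (95% interval -2.35 to -0.19), which had an adjusted p = 0.728 (unadjusted p = 0.0234, edgeR), so the 2 responses were not shown to differ.

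Tnc (chr4:63959785-64047015, minus strand) encodes tenascin-C, a matricellular protein of wounds and inflamed tissue. It was counted at 16, 15 and 12 reads in treated and 7, 5 and 1 reads in untreated MyS3KO libraries. Smad3fl had 5, 9 and 10 reads treated, against 1, 2 and 0 untreated. In Smad2fl it had 11, 20 and 8 reads treated, against 3, 2 and 1 untreated. The libraries labelled MyS2KO had 3, 9 and 1 reads treated, against 0, 4 and 2 untreated. Treated libraries were thus above untreated ones in Smad2fl, MyS3KO and Smad3fl, and overlapped in the libraries labelled MyS2KO. Tnc rose in Smad2fl (log2 change 2.62 ± 0.81, adjusted p = 0.0374) and in Smad3fl (2.99 ± 0.92, adjusted p = 0.0351), with 1.11 ± 0.89 for the libraries labelled MyS2KO (adjusted p = 0.746) and 1.66 ± 0.73 in MyS3KO (adjusted p = 0.176). Both calls were close to the threshold. The Smad2fl call was lost when any of the 6 Smad2fl libraries was left out (adjusted p = 0.0562 to 0.164) and with 6 single libraries of other groups (0.0508 to 0.0553). The Smad3fl call was lost without untreated library 1 or 3 or treated library 2 or 3 (adjusted p = 0.0858, 0.146, 0.0802 and 0.109), and without both libraries numbered 3 the change was 2.17 (adjusted p = 0.304). A gene on the opposite strand, 8030451A03Rik, overlaps Tnc and had 49 reads in treated and 18 in untreated Smad2fl, and 43 and 18 in Smad3fl. Without a stated strand setting, reads of the 2 genes cannot be told apart.

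**Figure D2:**
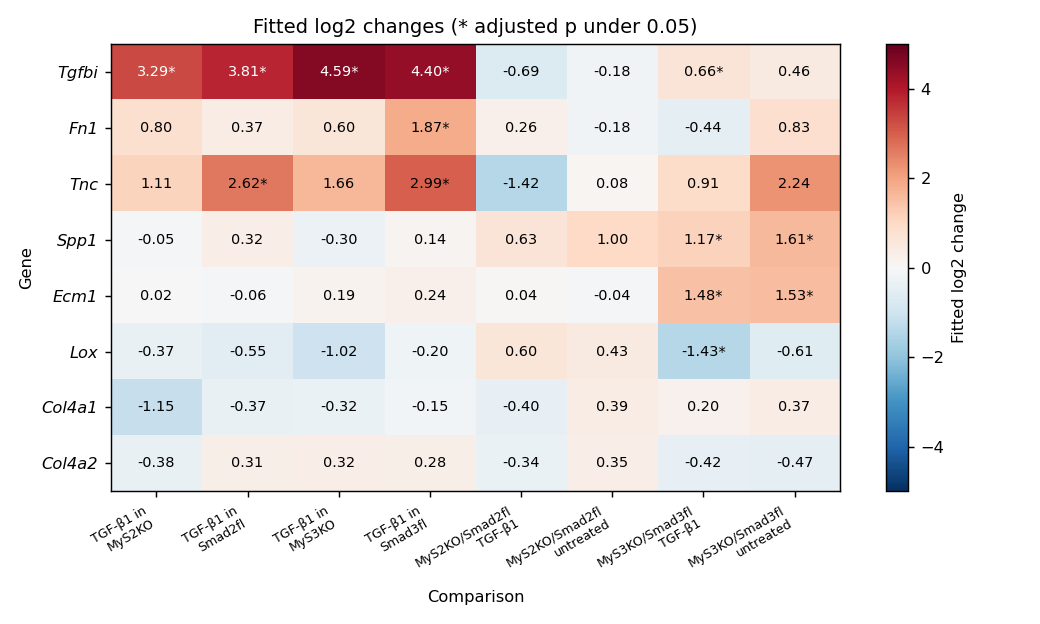
Fitted log2 changes of 8 genes in 8 comparisons, with an asterisk where the adjusted p was under 0.05. The first 4 columns are TGF-β1 responses and the last 4 are knockout against floxed libraries, and Tgfbi is marked in all 4 responses while Spp1 and Ecm1 are marked only in the 2 comparisons of MyS3KO with Smad3fl.

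The question of whether loss of either SMAD alters these responses is put by the interaction, the response of the knockout minus that of the floxed libraries. In the Smad2 line 0.00701% of all tested genes were called in this test, in the Smad3 line 0.021%, and for the difference between the lines 0.014%, and none of the 9 genes was called in any of the 3 by edgeR or by DESeq2. For Tgfbi the interaction was -0.52 ± 0.31 in the Smad2 line (95% interval -1.15 to 0.12, adjusted p = 1) and 0.19 ± 0.31 in the Smad3 line (-0.45 to 0.83, adjusted p = 0.862). The intervals leave room for a response in the libraries labelled MyS2KO between 1.15 lower and 0.12 higher on the log2 scale than in Smad2fl, and a missed threshold does not show that the responses were alike. By the edgeR test, an unadjusted p under 0.05 was reached by Fn1 in the Smad3 line, described above, and in the difference between lines (-1.71 ± 0.80, adjusted p = 1). It was also reached by Col1a1 in the Smad2 line, where 2 of the 4 groups had no read and the fitted value has no meaning.

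Spp1 (chr5:104435118-104441050, plus strand) encodes osteopontin, a secreted phosphoprotein that binds integrins and CD44 and that macrophages and osteoclasts make in quantity. Treated MyS3KO libraries had 461, 724 and 570 CPM, against 216, 244 and 318 CPM in treated Smad3fl. Untreated MyS3KO libraries had 632, 711 and 818 CPM, against 211, 298 and 198 CPM in untreated Smad3fl. Every MyS3KO library lay above every Smad3fl library. Spp1 was 2.26-fold higher in MyS3KO with TGF-β1 (log2 change 1.17 ± 0.27, edgeR adjusted p = 0.0036) and 3.06-fold higher without it (1.61 ± 0.27, adjusted p = 0.000384). Without both Smad3fl libraries numbered 3 these changes were 1.35 and 1.52, and without both MyS3KO libraries numbered 1 they were 1.33 and 1.71, all called.

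In the libraries labelled MyS2KO, Spp1 was at 316, 429 and 263 CPM with TGF-β1, against 209, 154 and 286 CPM in treated Smad2fl, where 1 Smad2fl library (286 CPM) lay above 1 labelled MyS2KO (263 CPM). Untreated, it was at 325, 430 and 288 CPM, against 207, 103 and 211 CPM in Smad2fl, with no overlap. Neither difference passed the test (0.63 ± 0.27, adjusted p = 0.427, and 1.00 ± 0.27, adjusted p = 0.211), although DESeq2 gave the untreated one an adjusted p = 0.0435. The knockout effect on Spp1 in the Smad3 line minus that in the Smad2 line was 0.54 ± 0.38 with TGF-β1 (adjusted p = 0.378) and 0.61 ± 0.38 without it (adjusted p = 0.374), so the lines were not shown to differ. TGF-β1 itself changed Spp1 by -0.30 to 0.32 in the 4 genotypes, none called. Of the 8 osteoclast markers looked at, 5 averaged at least 1 CPM, and the 8 summed to 93.5 to 106 CPM in treated and 86.0 to 119 CPM in untreated MyS3KO, against 109 to 136 and 119 to 187 CPM in Smad3fl. In the libraries labelled MyS2KO they summed to 84.3 to 95.1 CPM treated and 85.9 to 100 CPM untreated, against 65.0 to 70.4 and 76.5 to 87.9 CPM in Smad2fl. The 9 neutrophil and precursor markers summed to 16.2 to 19.1 CPM in treated and 13.8 to 23.0 CPM in untreated MyS3KO, against 3.8 to 21.0 and 3.01 to 19.1 CPM in Smad3fl, and to 5.05 to 10.9 CPM in the libraries labelled MyS2KO, against 1.06 to 3.24 CPM in Smad2fl. The part of these markers in the Spp1 difference was not tested.

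Ecm1 (chr3:95734147-95739569, minus strand) encodes extracellular matrix protein 1, a secreted glycoprotein of skin and other tissues that binds several matrix components. It was at 83.1, 81.8 and 73.2 CPM in treated MyS3KO, against 32.7, 27.4 and 25.2 CPM in treated Smad3fl. Untreated, it was at 58.2, 83.2 and 67.9 CPM in MyS3KO, against 24.4, 19.4 and 28.5 CPM in Smad3fl. The groups were far apart, and Ecm1 was 2.79-fold higher in MyS3KO with TGF-β1 (1.48 ± 0.16, adjusted p = 3.78e-06) and 2.90-fold higher without it (1.53 ± 0.16, adjusted p = 3.44e-06). In the Smad2 line the libraries labelled MyS2KO had 59.4, 51.7 and 65.8 CPM treated and 56.6, 61.9 and 55.4 CPM untreated, against 67.0, 50.1 and 54.8 CPM treated and 60.5, 65.8 and 52.7 CPM untreated in Smad2fl. Those 4 groups overlapped (0.04 ± 0.16 and -0.04 ± 0.16, both adjusted p = 0.968). The order of the means put MyS3KO at the top (79.4 and 69.8 CPM), the 4 groups of the Smad2 line next (57.3 to 59.7 CPM) and Smad3fl at the bottom (28.4 and 24.1 CPM). Treated MyS3KO (73.2 to 83.1 CPM) lay above every library of the Smad2 line, untreated MyS3KO overlapped with them, and Smad3fl did not overlap with any group of another genotype. The difference in MyS3KO is thus measured against floxed libraries that were themselves 0.404-fold those of Smad2fl untreated.

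Across the 4 knockout comparisons, 0.421% of all tested genes were called in the libraries labelled MyS2KO with TGF-β1 and 0.0701% without, and 28.2% and 17.7% in MyS3KO. Of the 9 genes tested here, none was called by edgeR in the libraries labelled MyS2KO under either treatment, where 2 genes with TGF-β1 (Tgfbi and Spp1) and 1 gene without it (Spp1) had an unadjusted p under 0.05. DESeq2 called 0 with TGF-β1 and 1 (Spp1) without it. With no low-count filter edgeR called Tgfbi (-0.69, adjusted p = 0.00839) and Spp1 (0.64, 0.0241) with TGF-β1 and Spp1 without it (0.98, 2.08e-05), and with only the groups compared in the fit it called Tgfbi with TGF-β1 (adjusted p = 0.0192). In MyS3KO 4 were called with TGF-β1 (Tgfbi, Spp1 and Ecm1 higher, Lox lower) and 2 without it (Spp1 and Ecm1, both higher). The untreated share of 2 in 9 is near its background, so it is the size of the single changes that is described here. For the difference of the knockout effects between the lines, 7.09% of all genes were called with TGF-β1 and 4.93% without. Ecm1 was called in both (1.44 ± 0.22, adjusted p = 0.00101, and 1.58 ± 0.22, adjusted p = 0.000562), and Tgfbi with TGF-β1 (1.35 ± 0.30, adjusted p = 0.0121). The Tgfbi difference joined a value of 0.66 ± 0.22 in MyS3KO (657 CPM, against 417 CPM in Smad3fl, adjusted p = 0.0276) and a value of -0.69 ± 0.22 in the libraries labelled MyS2KO (451 CPM, against 730 CPM in Smad2fl, adjusted p = 0.202). The edgeR call on Tgfbi in MyS3KO was lost when Smad3fl treated library 1 or 2 or MyS3KO treated library 3 was left out (adjusted p = 0.0568, 0.108 and 0.104). Untreated, Tgfbi in MyS3KO against Smad3fl was at 0.46 (adjusted p = 0.155), and it was called without both MyS3KO libraries numbered 1 (0.69, adjusted p = 0.0281).

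**Figure D3:**
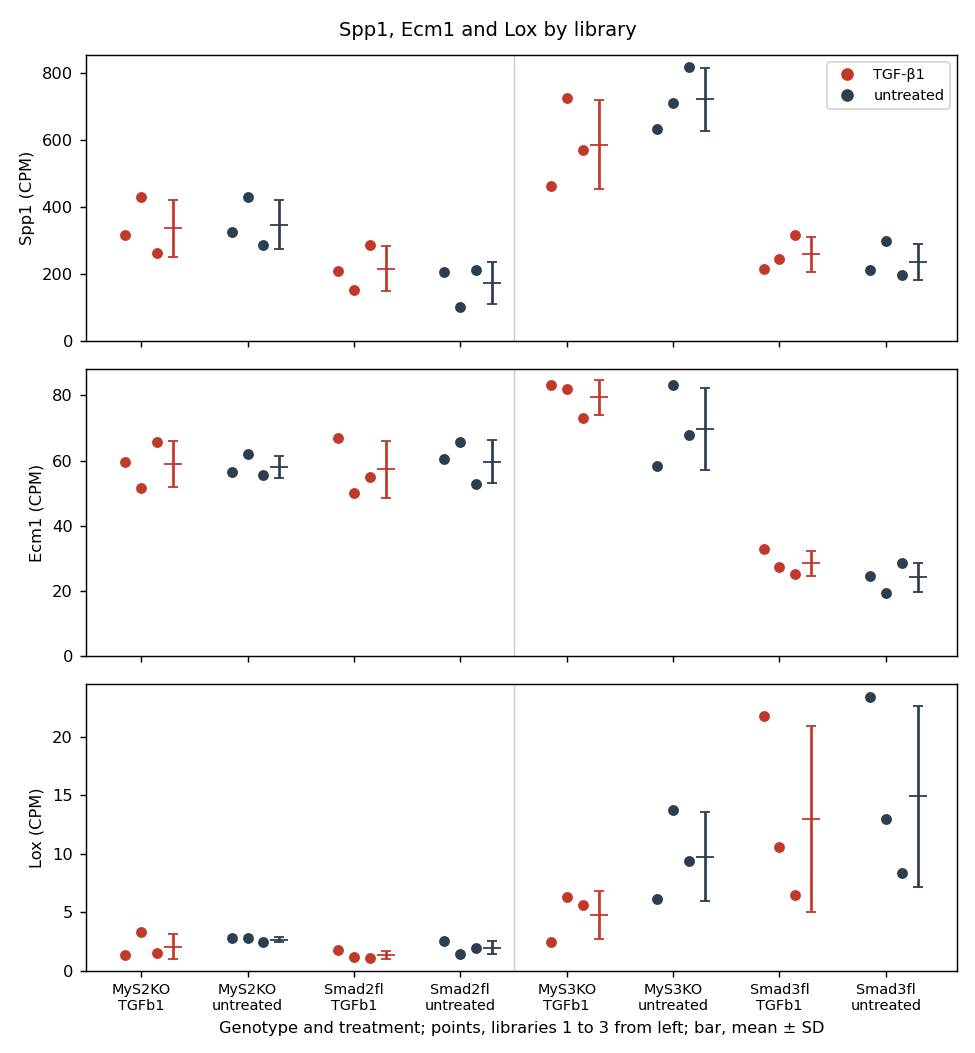
CPM of Spp1, Ecm1 and Lox in each library (points), with mean ± SD beside them, for each genotype with and without TGF-β1. Spp1 is highest in MyS3KO, Ecm1 lowest in Smad3fl (28.4 and 24.1 CPM), and Lox higher in the Smad3 line than in most of the Smad2 line, with wide spread in Smad3fl.

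Lox (chr18:52516069-52529867, minus strand, as the deposited table gives it) encodes lysyl oxidase, the copper enzyme that oxidises lysines of collagen and elastin so that the fibres cross-link. Treated MyS3KO had 2.45, 6.30 and 5.62 CPM, against 21.8, 10.6 and 6.49 CPM in treated Smad3fl, with no overlap. Untreated, MyS3KO had 6.14, 13.7 and 9.41 CPM, against 23.4, 13.0 and 8.31 CPM in Smad3fl, with overlap. Lox was lower in MyS3KO with TGF-β1 (log2 change -1.43 ± 0.44, edgeR adjusted p = 0.0196) and at -0.61 ± 0.42 without it (adjusted p = 0.341). The call rested on few libraries: it was lost without treated Smad3fl library 1 (-0.80, adjusted p = 0.191), without treated MyS3KO library 1 (-1.11, adjusted p = 0.0917) and without both MyS3KO libraries numbered 1 (-1.12, adjusted p = 0.0752). Without both Smad3fl libraries numbered 3 it was -1.74 (adjusted p = 0.00422). In the Smad2 line Lox was at 1.36, 3.27 and 1.47 CPM treated and 2.79, 2.75 and 2.41 CPM untreated in the libraries labelled MyS2KO, against 1.73, 1.19 and 1.10 CPM treated and 2.51, 1.38 and 1.97 CPM untreated in Smad2fl. These values overlapped, and no call was made (0.60 ± 0.51, adjusted p = 0.809, and 0.43 ± 0.48, adjusted p = 0.859). The difference between the lines under TGF-β1 was -2.03 ± 0.67 (edgeR adjusted p = 0.0652). It was called without both Smad3fl libraries numbered 3 (-2.35, adjusted p = 0.0177), with no low-count filter (adjusted p = 3.53e-05), by DESeq2 (0.0187) and with only the groups compared in the fit (0.0437).

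In MyS3KO each library had less Lox with TGF-β1 than the untreated library of the same number, at 2.45 against 6.14, 6.30 against 13.7 and 5.62 against 9.41 CPM. The same held in Smad3fl (21.8 against 23.4, 10.6 against 13.0 and 6.49 against 8.31 CPM) and in Smad2fl (1.73 against 2.51, 1.19 against 1.38 and 1.10 against 1.97 CPM), and for 2 of the 3 numbers in the libraries labelled MyS2KO. None of the 4 responses was called, and the change in MyS3KO was -1.02 ± 0.44 (edgeR adjusted p = 0.166). With the library number as a block it was called (-1.04, adjusted p = 0.0014), as it was with no low-count filter (-1.05, adjusted p = 0.00239). Library numbers did not pair all libraries of MyS3KO or Smad2fl by the check applied here.

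**Figure D4:**
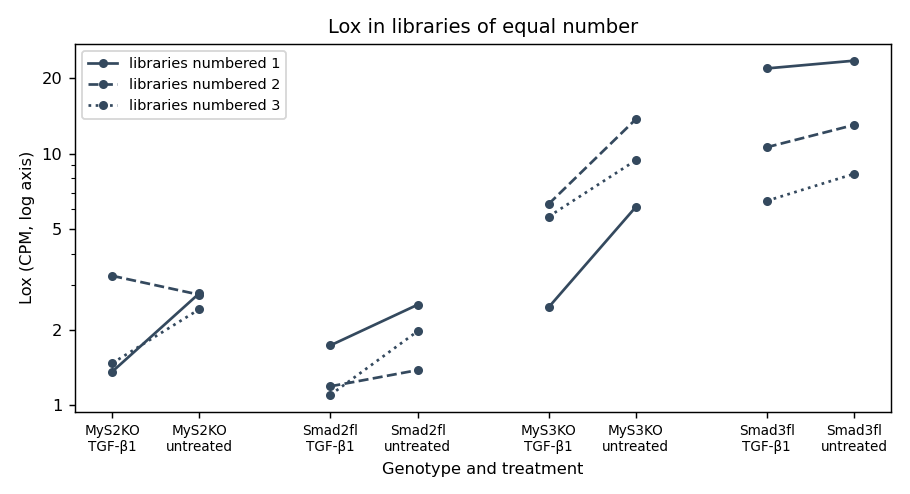
Lox CPM (log axis) in treated and untreated libraries, with libraries of equal number joined by a line, for the 4 genotypes. Within Smad3fl the libraries numbered 1 are highest under both treatments (21.8 and 23.4 CPM), and within MyS3KO those numbered 1 are lowest (2.45 and 6.14 CPM).

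Col4a1 (chr8:11198423-11312826, minus strand) and Col4a2 (chr8:11312805-11449287, plus strand) encode the α1 and α2 chains of collagen IV, the network-forming collagen of basement membranes, in which chains of the first kind join chains of the second. The gene models overlap by 22 bases, where reads cannot be assigned without strand. With TGF-β1, Col4a1 was at 0.967, 0.842 and 1.32 CPM in the libraries labelled MyS2KO, against 2.18, 1.35 and 3.47 CPM untreated. These libraries did not overlap, but the change did not pass the edgeR test (-1.15 ± 0.49, adjusted p = 0.308). In Smad2fl Col4a1 was at 1.22, 1.45 and 1.46 CPM treated, against 1.07, 2.28 and 2.02 CPM untreated. In the Smad3 line it was at 1.10, 0.694 and 0.170 CPM treated, against 0.894, 0.888 and 0.608 CPM untreated, in MyS3KO, and at 0.725, 0.528 and 0.392 CPM treated, against 1.04, 0.315 and 0.470 CPM untreated, in Smad3fl. The 3 responses other than that in the libraries labelled MyS2KO lay between -0.37 and -0.15, none called.

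Col4a2 lay between 2.47 and 8.25 CPM in all libraries. Its group means were 4.81 CPM treated and 6.27 CPM untreated in the libraries labelled MyS2KO, 6.08 and 4.94 CPM in Smad2fl, 3.82 and 3.03 CPM in MyS3KO, and 5.08 and 4.19 CPM in Smad3fl. No response was called (-0.38 to 0.32 on the log2 scale). Neither chain was called between knockout and floxed libraries, with changes of -0.40 and 0.39 for Col4a1 and -0.34 and 0.35 for Col4a2 in the libraries labelled MyS2KO (treated and untreated), and of 0.20 and 0.37, and -0.42 and -0.47, in MyS3KO. Per length, the FPKM of Col4a1 was 0.0873 to 0.579 times that of Col4a2 in single libraries, with a median of 0.268, so the 2 chains were not present in like amounts of RNA. The median ratio was 0.251 with TGF-β1 and 0.500 without it in the libraries labelled MyS2KO, 0.280 and 0.427 in Smad2fl, 0.250 and 0.365 in MyS3KO, and 0.141 and 0.127 in Smad3fl. Across the 24 libraries, which share depth and line differences, the log2 CPM of both chains had a Pearson r of 0.62, given as a description.

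Col1a1 (chr11:94936224-94953042, plus strand) encodes the main chain of collagen I, the fibrillar collagen of bone and scar, and Postn (chr3:54361109-54391037, plus strand) encodes periostin, a matricellular protein of periosteum and fibrotic tissue. Col1a1 had 78 reads in all. In 5 libraries it had 10 to 17 reads, namely 17 and 10 in treated Smad3fl libraries 3 and 2, 16 in treated MyS3KO library 1, 14 in treated library 2 labelled MyS2KO and 15 in untreated Smad2fl library 3. The other 19 libraries had at most 1 read, and 13 of them had none. The groups overlapped in every comparison, and a fitted fold has no meaning where whole groups lacked reads. Col1a2, the partner chain, had 12, 15, 13, 11 and 4 reads in the same 5 libraries in that order and at most 4 in each of the rest, and Col3a1 had 7, 8, 0, 7 and 3. Of the 12 fibroblast and stromal markers, Acta2, Pdgfrb and Tagln reached up to 4.19, 2.57 and 2.16 CPM in a library. The others reached at most 0.797 CPM (Col1a2), with Dcn, Lum and Pdgfra at most at 0.676, 0.114 and 0.112 CPM. Col1a1 itself reached at most 0.981 CPM. The part of stromal RNA in the Col1a1 reads was not tested. Postn had 6 reads in treated MyS3KO library 1 and 0 to 3 in every other library.

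**Figure D5:**
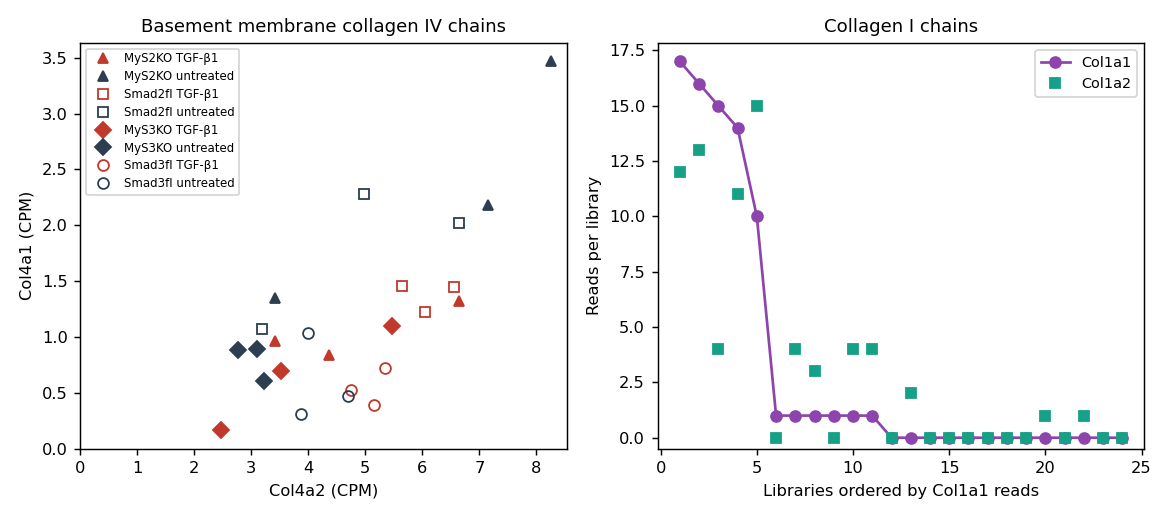
Left, CPM of Col4a1 against Col4a2 in each library (colour, treatment; symbol, genotype); right, reads of Col1a1 and Col1a2 in each library, ordered from the highest Col1a1 count. Both type IV chains tend to be high together (r of 0.62 over 24 libraries), and 5 libraries carry 10 to 17 Col1a1 reads while the other 19 carry at most 1.

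Other genes of the matrix were followed as 8 lists of 169 symbols, 84 of them tested. The median of a list's log2 changes is given beside that of all tested genes, which was -0.03 to 0.01 in the 4 responses. Of all tested genes, 2.9% rose and 0.505% fell in the libraries labelled MyS2KO, 7.37% and 3.74% in Smad2fl, 6.54% and 3.47% in MyS3KO, and 6.38% and 5.64% in Smad3fl, and the counts below are of few genes beside these shares. Of 18 other collagens only 6 were tested. Col14a1, which encodes a collagen that binds fibrils, rose in all 4 genotypes, to 4.26 CPM in the libraries labelled MyS2KO, against 1.31 CPM untreated, and by 1.71 ± 0.43, 2.46 ± 0.43, 2.52 ± 0.42 and 1.64 ± 0.39 in the libraries labelled MyS2KO, Smad2fl, MyS3KO and Smad3fl (adjusted p = 0.025, 0.000296, 0.000202 and 0.0054). Col15a1, a basement membrane zone collagen, rose in MyS3KO (2.36 ± 0.62, adjusted p = 0.0139). List medians were 0.76, -0.04, 0.98 and 0.87 in the same order of genotypes. Of 8 tested basement membrane genes, none rose and 1 fell, Agrn in Smad3fl (-0.53 ± 0.14, adjusted p = 0.0111), the gene of agrin, a heparan sulfate proteoglycan. Of 8 other matricellular and glycoprotein genes, 1 was called in 1 genotype, Vtn, the gene of vitronectin, which rose in MyS3KO (1.58 CPM, against 0.494 CPM untreated, adjusted p = 0.0477). Among 4 proteoglycan genes Cspg4, which encodes a membrane proteoglycan, was called in all 4 genotypes, at 1.01, 1.81, 1.51 and 0.928 CPM treated, against no read, no read, 0.0199 and 0.0626 CPM untreated. Vcan, the gene of versican, fell in MyS3KO (-0.93 ± 0.28, adjusted p = 0.0354) and in Smad3fl (-0.90 ± 0.27, adjusted p = 0.0308).

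Of 15 tested matrix receptors, 4 rose and none fell in the libraries labelled MyS2KO, 4 rose and 2 fell in Smad2fl, 6 rose and 1 fell in MyS3KO, and 4 rose and 1 fell in Smad3fl. The integrin chains Itgav, Itga5, Itga6 and Itgb5, which form receptors for fibronectin, laminin and vitronectin, rose in all 4 genotypes. Itgav was at 191, 268, 295 and 356 CPM treated, against 71.0, 69.5, 92.7 and 142 CPM untreated (labelled MyS2KO, Smad2fl, MyS3KO and Smad3fl), and Itgb5 at 96.5, 178, 188 and 141 CPM treated, against 37.3, 50.8, 45.8 and 39.1 CPM untreated. Of 15 tested genes of collagen cross-linking and processing, 2, 2, 3 and 2 rose in those genotypes and none fell. Tgm2, which encodes the cross-linking enzyme transglutaminase 2, rose in each (1.33 ± 0.23, 1.74 ± 0.23, 2.31 ± 0.23 and 1.16 ± 0.22). Fam20c, the gene of a kinase of secreted proteins such as osteopontin, rose in 3 of them and had 0.49 ± 0.18 in Smad3fl (adjusted p = 0.0912). Plod1, a lysyl hydroxylase gene, rose in MyS3KO (0.69 ± 0.15) and Smad3fl (0.71 ± 0.15). Of 21 proteases and inhibitors, 4 rose and 1 fell in each of Smad2fl, MyS3KO and Smad3fl. The urokinase gene Plau and its receptor gene Plaur rose in Smad2fl, MyS3KO and Smad3fl, and the aggrecanase gene Adamts4 fell in those 3. In the libraries labelled MyS2KO these 3 genes were at 0.35 ± 0.23, 0.93 ± 0.32 and -0.27 ± 0.28, and none was called. No protease or inhibitor gene was called in the interaction of the Smad2 line, where 0.00701% of all tested genes were. These responses were thus not shown to differ between the libraries labelled MyS2KO and Smad2fl. All 8 feedback genes of the pathway rose in all 4 genotypes, with list medians of 2.95, 4.27, 4.67 and 3.68. Smad7, the inhibitory SMAD, was at 24.1, 42.4, 42.6 and 52.3 CPM treated, against 1.10, 1.07, 0.814 and 0.678 CPM untreated.

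Between knockout and floxed libraries, 0.189% of all tested genes were higher and 0.231% lower in the libraries labelled MyS2KO with TGF-β1, against Smad2fl, and in MyS3KO 15% and 13.2% with TGF-β1 and 8.37% and 9.38% without it, against Smad3fl. No gene of the 8 lists was called in the libraries labelled MyS2KO untreated. With TGF-β1, Lamc1, a laminin chain gene, was higher there and is named after its value was seen (40.5 CPM, against 23.2 CPM in Smad2fl, adjusted p = 0.0488), and Itga6 (-0.67 ± 0.14), Smad7 (-0.81 ± 0.17), Pmepa1 (-1.35 ± 0.28) and Ski (-0.63 ± 0.11) were lower. In MyS3KO the basement membrane list had 4 genes higher and none lower with TGF-β1 (median 1.38, against 0.01 over all tested genes) and 3 higher and 1 lower without it (0.89, against -0.03). Col4a5, which encodes another collagen IV chain, was at 10.0 CPM treated and 13.5 CPM untreated in MyS3KO, against 2.23 and 3.56 CPM in Smad3fl (2.17 ± 0.28 and 1.93 ± 0.27, adjusted p = 2.66e-05 and 6.44e-05), while Col4a1 and Col4a2 were not called. Of the matrix receptors 2 were higher and 3 lower with TGF-β1, and 1 higher and 6 lower without it, and Itga9, an integrin chain whose receptor binds tenascin-C and osteopontin, was among the lower ones (-0.64 ± 0.11 and -0.75 ± 0.11). Adamts4 had the smallest p of the listed genes under both treatments, at 26.6 CPM treated and 61.5 CPM untreated in MyS3KO, against 155 and 448 CPM in Smad3fl. Bmp1, which encodes a procollagen proteinase and an activator of the lysyl oxidase precursor, was lower too (-1.37 ± 0.21 treated and -1.38 ± 0.21 untreated, adjusted p = 0.000169 and 0.000144).

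Of 155 edgeR calls on listed genes in the 4 responses and the knockout comparisons, 105 were kept whichever 1 of the 24 libraries was left out. The Vtn call in MyS3KO was lost without any 1 of 19 libraries (adjusted p up to 0.205). With 1 library left out, the other named responses that lost their call did so in 1 genotype each, except Vcan. Vcan lost it in MyS3KO and in Smad3fl, the only genotypes where it had been called. In the libraries labelled MyS2KO these were Col14a1 (without treated library 1 or untreated library 1 or 2, adjusted p up to 0.152), Itga5 (without treated library 1 or 3, untreated library 1 or 2, or any of the 6 treated libraries of Smad2fl and Smad3fl, up to 0.212) and Fam20c (without treated library 2 or 3 or untreated library 1 or 2, up to 0.18). In Smad2fl it was Plau (without treated library 1 or 3 or untreated library 1 or 2, up to 0.0769). In MyS3KO they were Col15a1 (without treated library 3 or untreated library 1 or 2, up to 0.123), Vcan (without treated library 2 or 3 or untreated library 1, up to 0.323) and Adamts4 (without untreated library 1, 0.0518). In Smad3fl they were Agrn (without treated library 1 or untreated library 2, up to 0.0706), Vcan (without treated or untreated library 1 or 2, up to 0.128), Cspg4 (without treated library 1, 0.128) and Plaur (without treated library 1 or untreated library 3, up to 0.129). Without both MyS3KO libraries numbered 1, Plod1 in MyS3KO was at an adjusted p of 0.0724, and without both Smad3fl libraries numbered 3, Col14a1 in Smad3fl was at 0.0521 and Plaur there at 0.0995. The 5 calls with TGF-β1 in the libraries labelled MyS2KO against Smad2fl (Lamc1, Itga6, Smad7, Pmepa1 and Ski) were all lost without treated library 2 or 3 labelled MyS2KO or treated Smad2fl library 1 or 2, with adjusted p up to 0.323, 0.214, 0.195, 0.244 and 0.113.

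The floxed controls of the 2 lines differed untreated, with 33.4% of all tested genes called between Smad3fl and Smad2fl, and 4 of the 9 genes were among them. Tgfbi was lower in Smad3fl (19.7 CPM, against 52.1 CPM in Smad2fl, -1.40 ± 0.22, adjusted p = 8.89e-05), and so were Ecm1 (24.1 CPM, against 59.7 CPM, -1.31 ± 0.16, adjusted p = 5.17e-06) and Col4a1 (0.607 CPM, against 1.79 CPM, -1.53 ± 0.50, adjusted p = 0.024). Lox was higher in Smad3fl (14.9 CPM, against 1.95 CPM, 2.92 ± 0.47, adjusted p = 9.82e-05). The Col4a1 call was lost without both Smad3fl libraries numbered 3 (adjusted p = 0.0588) and without Smad2fl library 2 or 3 or Smad3fl library 2 or 3 (adjusted p = 0.0938, 0.0629, 0.117 and 0.0582). What sets the lines apart was not tested, and their floxed gene, culture, animals and libraries cannot be told apart.

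For the 4 genes with a mean of at least 5 CPM, the tested genes whose log2 CPM was most alike over the 24 libraries were listed, as a description of samples that share treatment, line and depth. Tgfbi was most like Cebpa (Pearson r 0.977), Nsd2 (0.976) and Smad7 (0.975). Ecm1 was most like Mgst1 (0.941), Man2a2 (0.934) and Mettl7a1 (0.931). For Lox, 1110002J07Rik (0.94) and Sh3d19 (0.934) were among the 3 most alike, and Spp1 was most like F730311O21Rik (0.918), Gm12663 (0.821) and Dnajc10 (0.819). The minimum of 5 CPM was not applied to these partner genes. Gm12663 averaged only 0.27 CPM, F730311O21Rik 2.83 CPM and Sh3d19 3.54 CPM. Among the members with a mean of at least 1 CPM (all but Tnc, Col1a1 and Postn), r ran from -0.60 for Col4a1 with Lox to 0.62 for the 2 collagen IV chains. Tgfbi with Spp1 was at -0.04.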

How the data were processed

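Polyadenylated RNA from 24 libraries was analysed from 2 tables: whole-number read counts per gene, deposited by the authors with no normalization, and FPKM values, deposited by the authors, which are scaled by gene length and library size. The gene length and coordinates were also as deposited. The submitters' processing notes name TopHat2 2.0.9, HTSeq 0.6.1, Cufflinks 2.1.1 and mm10 or GRCm38.p6. Which tool made which table, how reads were counted and whether by strand is not given in the sources used here.

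The counts were tested with edgeR 4.0.16 in R 4.3.3 (quasi-likelihood, TMM scaling, filterByExpr), with all 24 libraries in 1 fit of 8 group means. Of 54532 genes, 14261 were tested and 26189 had no read. P-values were adjusted by Benjamini-Hochberg over all tested genes within each of 14 comparisons and called under 0.05. CPM are counts scaled by the TMM-adjusted library totals, and log2 changes are fitted values ± SE. Libraries held 16868501 to 24918582 reads, the median biological variation was 21.2%, and 16 residual degrees of freedom were supplemented by a median of 6.07 from all genes. No pair of libraries had identical values.

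On simulated counts for TGF-β1 in Smad2fl over 13560 genes, 46.8% of 94 genes changed by 1 log2 unit and 92.6% of 94 changed by 2 were called, and 4.38% of the calls were false. The simulation gave every gene the same spread between libraries and set no difference among the groups other than treated Smad2fl. Its shares therefore need not hold for the real counts. The members and lists were chosen with earlier results of these data known. All members were named. Of each list, up to 4 genes called in the most TGF-β1 responses (ties by p), or up to 4 by p in a knockout comparison, were named, and for likeness the 3 genes with the highest r over 24 libraries were taken for members with a mean of at least 5 CPM. Results on 2 genes that these rules name are not reported here.

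Libraries of equal number were checked for shared deviations from their group means. For treated against untreated libraries, every pair had r over 0.1 in those labelled MyS2KO (0.15, 0.22 and 0.41) and in Smad3fl (0.45, 0.34 and 0.33). Not every pair did in Smad2fl (0.05, 0.13 and 0.16), in MyS3KO (0.41, 0.04 and 0.29) or between knockout and floxed libraries. The highest r of unequal numbers was 0.2 in those labelled MyS2KO, 0.04 in Smad2fl, 0.29 in MyS3KO and -0.09 in Smad3fl. No label says that a number marks a shared culture or animal. Alternatives were RLE scaling, no low-count filter, DESeq2 1.42.0, a replicate block, fits with only the groups compared, leaving out libraries, and ratios of the deposited FPKM. Promoter windows were RefSeq's. No protein sequence was used here.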

Additional observations from a re-analysis of the deposited data

Results flagged for a closer look

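The difference in Ecm1 between knockout and floxed libraries was larger in the Smad3 line than in the Smad2 line, as tested by the difference itself. Untreated, MyS3KO minus Smad3fl exceeded the libraries labelled MyS2KO minus Smad2fl by 1.58 ± 0.22 on the log2 scale (edgeR adjusted p = 0.000562), from 1.53 in the Smad3 line and -0.04 in the Smad2 line. With TGF-β1 the difference for Ecm1 was 1.44 ± 0.22 (adjusted p = 0.00101), from 1.48 and 0.04. All 6 MyS3KO libraries were above all 6 Smad3fl libraries. Smad3fl was itself low, with means of 28.4 CPM treated and 24.1 CPM untreated, against 57.3 and 59.7 CPM in Smad2fl. Knockout and line therefore cannot be told apart in this difference.

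For Tgfbi the same difference was 1.35 ± 0.30 with TGF-β1 (adjusted p = 0.0121), from 0.66 in the Smad3 line and -0.69 in the Smad2 line. All 3 treated MyS3KO libraries were above the treated Smad3fl libraries, and all 3 treated libraries labelled MyS2KO were below the treated Smad2fl libraries. The treated floxed controls also differed, at a mean of 417 CPM in Smad3fl and 730 CPM in Smad2fl. The untreated difference for Tgfbi was 0.64 ± 0.31 (adjusted p = 0.243).

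No group held enough libraries to look for single outlying samples.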

How the results depend on the processing

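No called change of the genes described here, and none of 155 called changes of listed genes, reversed its direction under any alternative listed here, while log2 differences near 0 that were not called did. Of the listed genes' calls, 35 of 148 were lost with only the groups compared, 18 without both MyS3KO libraries numbered 1, 7 with no filter, 6 without both Smad3fl libraries numbered 3, 4 with the replicate block, 3 with RLE and 50 without at least 1 single library, and 0 by DESeq2, which gave 1 of them no adjusted p. The number of called genes moved more than the values. With library number as a replicate block, 1032 genes were called for TGF-β1 in the libraries labelled MyS2KO, 3237 in Smad2fl, 2749 in MyS3KO and 3306 in Smad3fl, the interactions gave 2 (Smad2 line), 6 (Smad3 line) and 16 (their difference), and untreated MyS2KO against Smad2fl gave 19. The block called 2 of the genes described here in MyS3KO, with Lox at -1.04 (adjusted p = 0.0014), and ended none of their calls. Not every pair of equal number passed the check in Smad2fl (r of 0.05, 0.13 and 0.16) or MyS3KO (0.41, 0.04 and 0.29).

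With no low-count filter Tnc in Smad2fl was at 2.60 (adjusted p = 0.0648). MyS2KO against Smad2fl gave 313 genes treated and 161 untreated, the interactions 13, 161 and 12, and the differences of knockout effects 1908 treated and 1240 untreated. Of the genes described here, 2 were then called in the MyS3KO response (Lox -1.05), 2 and 1 in MyS2KO against Smad2fl (Tgfbi -0.69 and Spp1 0.64 treated, Spp1 0.98 untreated), 1 in the Smad2-line interaction and 4 in the treated difference (Lox -2.04). By elimination the interaction call and 1 of the 4 belong to Col1a1. Its fitted value has no meaning there, because whole groups lacked reads.

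DESeq2 gave 218 and 92 genes for MyS2KO against Smad2fl treated and untreated, interactions of 8, 15 and 11, and differences of 1687 and 1232. It called 1 gene described here untreated (Spp1 1.00) and Lox in the treated difference (-2.06), and gave no adjusted p for Tnc in Smad3fl. RLE scaling gave 1 gene in the Smad3-line interaction.

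With only the groups compared in the fit, TGF-β1 gave 893 genes in MyS3KO and 1004 in Smad3fl. MyS2KO against Smad2fl gave 271 treated, with 1 gene described here (Tgfbi -0.69), and 0 untreated (1129 at unadjusted p under 0.05). MyS3KO against Smad3fl gave 256 untreated, both interactions 0 (606 and 855 unadjusted), the differences 2332 treated (Lox -2.04) and 127 untreated, and the floxed lines 2209 (Col4a1 -1.53, adjusted p = 0.0753). In Smad2fl, 1 gene described here was called.

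Without both Smad3fl libraries numbered 3, Smad3fl gave 978 genes (Tnc 2.17), MyS2KO against Smad2fl untreated 24 and the untreated difference 1913, with Lox at -2.35 in the treated difference and Col4a1 at -1.39 between floxed lines. Without both MyS3KO libraries numbered 1, a choice made after seeing the data, MyS2KO against Smad2fl gave 129 and 20, the Smad3-line interaction 0 (537 unadjusted), the line difference 1, and the differences 1544 and 1621, with Lox at -1.12 in treated and Tgfbi at 0.69 in untreated MyS3KO, which was then called. From deposited FPKM, the log2 ratio for Col4a2 in Smad3fl was 0.41.

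Leaving out 1 library at a time gave 316 to 567 genes for TGF-β1 in the libraries labelled MyS2KO, 1057 to 1887 in Smad2fl (1 to 2 of those described here), 914 to 1569 in MyS3KO and 1136 to 1993 in Smad3fl (2 to 3). MyS2KO against Smad2fl gave 0 to 86 treated and 2 to 22 untreated, MyS3KO against Smad3fl 2219 to 4510 (2 to 4) and 1367 to 3577, the interactions 0 to 1, 0 to 6 and 1 to 4, the differences 348 to 1662 and 244 to 1948, and the floxed lines 2744 to 5970.

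Among differences that were called in neither setting, all log2, the sign turned as follows. For Col4a1, the untreated knockout effect in the Smad3 line minus that in the Smad2 line (-0.02) was 0.02 with no filter, 0.05 with the replicate block and 0.01 with only the groups compared. For Col4a2 the Smad3-line interaction (0.04) was -0.02 with the block, -0.06 without both Smad3fl libraries numbered 3 and -0.29 without both MyS3KO libraries numbered 1. Tnc in untreated MyS2KO against Smad2fl (0.08) was -0.04 with the block. Without both Smad3fl libraries numbered 3, Spp1 was at -0.16 for the Smad3fl response and 0.17 for the line difference of interactions. Without both MyS3KO libraries numbered 1, Col4a2 was at -0.03 for the MyS3KO response and Col4a1 at -0.37 in treated MyS3KO against Smad3fl.

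Leaving out 1 library at a time moved further uncalled differences across 0. For Col4a1 the range was -0.02 to 0.66 in untreated MyS2KO against Smad2fl, -0.37 to 0.69 in treated MyS3KO against Smad3fl, -0.90 to 0.14 for the MyS3KO response, -0.48 to 0.47 for the Smad3fl response, -0.82 to 0.31 for the Smad3-line interaction, -0.06 to 1.07 for the line difference of interactions and -0.30 to 0.65 for the untreated difference of knockout effects. For Col4a2 it was -0.52 to 0.03 in untreated Smad3fl against Smad2fl, -0.02 to 0.53 for the MyS3KO response, -0.29 to 0.27 for the Smad3-line interaction and -0.42 to 0.22 for the treated difference of knockout effects. For Ecm1 it was -0.04 to 0.17 and -0.14 to 0.03 in treated and untreated MyS2KO against Smad2fl, -0.09 to 0.09 for the MyS2KO response, -0.21 to 0.02 for the Smad2fl response and -0.19 to 0.08 for the Smad3-line interaction. In untreated MyS2KO against Smad2fl it was -0.91 to 0.20 for Fn1, -0.32 to 0.04 for Tgfbi and -0.75 to 0.55 for Tnc. Lox ranged over -0.79 to 0.27 for the Smad3fl response and -0.33 to 0.43 for the Smad2-line interaction, Tgfbi over -0.02 to 0.33 for the Smad3-line interaction, and Spp1 over -0.30 to 0.14 for the MyS2KO response and -0.05 to 0.32 for the Smad3fl response. The line difference of interactions ranged over -0.39 to 0.08 for Spp1 and -0.72 to 1.13 for Tnc. The causes were not tested. Counts of Tnc and Col1a1 limit what can be seen of both.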
